A study of Glycine max with 72 samples.

Results

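The line 2MWT-L carries a mutant *mrp-n* allele beside functional MIPS1 and MRP-L genes, and it was compared here with its sister line 2MWT, which carries functional MIPS1, MRP-L and MRP-N. Both are near-isogenic sister lines from 1 soybean cross with the low phytic acid line CX-1834 and both have normal phytic acid, so the contrast holds the single *mrp-n* mutation in seeds without the *lpa* trait. The 9 libraries of 2MWT-L and the 9 libraries of 2MWT were 18 of the 36 libraries of the MRP subset and 18 of the 72 samples of the series. Each line was sampled in triplicate, with 10 seeds per sample, as mature dry seed (stage 1), after 8 h of imbibition (stage 2) and at radicle emergence (stage 3), in the dark at 29°C. Seed coats and radicles were removed at stages 2 and 3. The remaining lines of the subset were *2mlpa* (MIPS1/*mrp-l*/*mrp-n*), the double mutant with low phytic acid, and 2MWT-N (MIPS1/*mrp-l*/MRP-N). Each genotype was 1 line, so any other segregating difference between sister lines cannot be told apart from the *mrp-n* allele. The p-values measure the spread between triplicate samples, estimated jointly over all 36 libraries of the subset and not on the compared triplicates alone.

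Phytic acid (*myo*-inositol hexakisphosphate) is the main phosphorus store of seeds. It is made from glucose 6-phosphate by a pathway that starts with *myo*-inositol phosphate synthase (MIPS), and multidrug resistance-associated protein (MRP) ABC transporters load it into the storage vacuole. Soybean has a pair of homologous genes for this step, MRP-L and MRP-N, and a working copy of either keeps phytic acid normal. During germination phytases release phosphate and inositol from this store.

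Counts per gene were summed over 56044 gene models of the Wm82.a2.v1 assembly, of which 31363 passed the filter on low counts and were tested. Library totals were 24722129 to 35124387 counts in 2MWT-L (median 27691036) and 24935561 to 39148507 in 2MWT (median 28341391). Pairs of replicate libraries correlated at r = 0.944 to 0.983 in 2MWT-L and 0.938 to 0.984 in 2MWT across genes, which are not independent replicates, and pairs taken across the lines at 0.913 to 0.979 (ranges that overlap). One library of 2MWT-N at stage 2 held 12679 counts and adds next to nothing to its group.

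The transcript of the mutated gene was first examined. MRP-N (Glyma.03G167800, chromosome 3, 38202353 to 38210883, minus strand) had 24.1, 24.3 and 33.2 CPM (counts scaled to a common library size with TMM factors) in stage 1 libraries of 2MWT-L, against 24.7, 33.8 and 23 CPM in 2MWT. At stage 2 it averaged 88.4 CPM in 2MWT-L and 102 CPM in 2MWT, and at stage 3 it averaged 64.5 CPM in 2MWT-L and 73.1 CPM in 2MWT. The ranges overlapped at each stage, and log2 fold changes were 0.00 ± 0.21, -0.20 ± 0.20 and -0.18 ± 0.20 (SE) at stages 1, 2 and 3 (FDR = 1, 0.661 and 0.709). The transcript level thus neither supports nor contradicts the genotype label. The homolog MRP-L (Glyma.19G169000, chromosome 19) and MIPS1 (Glyma.11G238800, chromosome 11) did not pass the test at any stage. The largest log2 fold change of these was +0.57 ± 0.33 for MIPS1 in dry seed (FDR = 0.363), where libraries held 386, 433 and 195 CPM in 2MWT-L and 263, 167 and 252 CPM in 2MWT.

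Differentially expressed genes (DEGs) were those with an FDR under 0.01 and a log2 fold change over 1 in size, the thresholds of the study. In dry seed 199 genes (0.635% of those tested) differed, 64 higher (0.204%) and 135 lower (0.43%) in 2MWT-L. In imbibed seed 63 genes (0.201%) differed, 28 higher (0.0893%) and 35 lower (0.112%). In germinated seed 174 genes (0.555%) differed, 35 higher (0.112%) and 139 lower (0.443%). An unadjusted p under 0.05 was reached by 5916, 4770 and 5535 genes at the 3 stages. The share of higher genes among DEGs moved with the scaling: it was 32.2%, 44.4% and 20.1% at stages 1, 2 and 3, against 14.1%, 55.7% and 31% with DESeq2 and 14.1%, 54.7% and 42.9% with edgeR on relative log expression factors. DESeq2 and the RLE factors shifted the median log2 fold change of all genes alike, by -0.14, 0.11 and 0.18, and count as a single other scaling. An excess of lower over higher genes thus held under both scalings at stages 1 and 3 and not at stage 2.

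**Figure D1:**
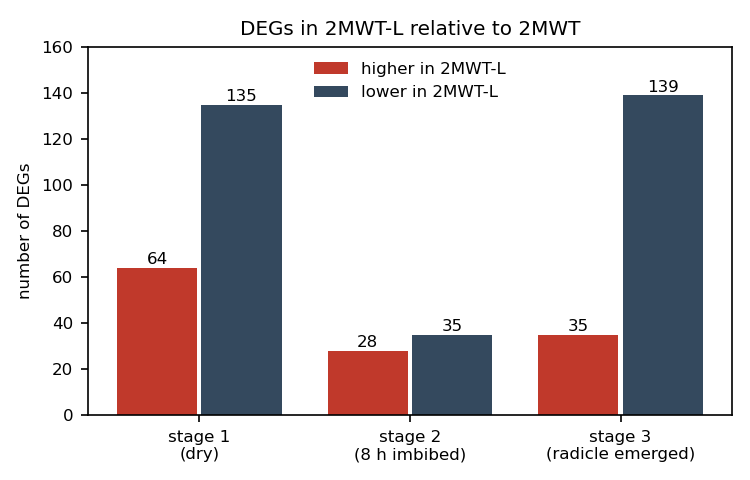
Bars give the number of DEGs (vertical axis) higher or lower in 2MWT-L than in 2MWT at each germination stage (horizontal axis). Lower genes outnumber higher ones in dry seed (135 against 64) and in germinated seed (139 against 35), and imbibed seed has 63 DEGs in all.

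The 3 stages together held 358 DEGs (1.14% of genes tested). Of these, 305 were called at 1 stage (154 at stage 1, 18 at stage 2 and 133 at stage 3), 28 at a pair of stages and 25 at all 3, and none was called in opposite directions. In seed tissue of mixed cell types, fewer cells of a type and less RNA per cell cannot be told apart. In 45, 9 and 11 DEGs of stages 1, 2 and 3 the 2MWT-L libraries were all at or under 3 counts, and in 10, 4 and 4 the 2MWT libraries were. TMM factors in dry seed were 0.4447 to 0.4969 in 2MWT-L and 0.4796 to 0.568 in 2MWT, against 1.183 to 1.601 at later stages. The floor of 3 counts is therefore a higher CPM in dry seed. Genes with a count there numbered 31248, 30065 and 32612 in 2MWT-L and 33137, 33681 and 30756 in 2MWT. DEGs were often of low abundance: 113 of 199 at stage 1, 18 of 63 at stage 2 and 51 of 174 at stage 3 had a mean under 5 CPM in both lines. *Arabidopsis* homologs were available for 65 of the 358, and genes without one are given by identifier.

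The 25 genes that differed at every stage comprised 18 lower and 7 higher in 2MWT-L, and they included the largest differences of the comparison. Glyma.12G088400 (chromosome 12, 7207187 to 7211020) had 0.22, 0 and 0 CPM in dry seed of 2MWT-L, against 20.2, 16.9 and 17 CPM in 2MWT. At stage 2 it had 0.0277, 0 and 0.0604 CPM in 2MWT-L, against 11.2, 13.2 and 10.6 CPM in 2MWT, and at stage 3 no count in any 2MWT-L library, against 7.83, 5.68 and 7.94 CPM in 2MWT. With 2MWT-L set to the floor of 3 counts per library, it was at least 79.8-fold, 133-fold and 128-fold lower at stages 1, 2 and 3 (FDR = 2.52e-10, 1.59e-11 and 6.59e-12). Glyma.15G209900 (chromosome 15, 32141540 to 32144042) behaved alike, at 0 CPM in all stage 2 and stage 3 libraries of 2MWT-L against 7.59 to 7.92 CPM and 4.78 to 7.27 CPM in 2MWT, and was at least 103-fold, 89.1-fold and 108-fold lower. Almost no read pairs were thus counted for these genes in 2MWT-L seed, against moderate levels in 2MWT seed at each stage. Multi-mapping pairs were left out of the counts, and whether the genes were transcribed in 2MWT-L was not tested.

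Several further genes were close to absent. Glyma.20G138000 (chromosome 20, 37745552 to 37747323), a homolog of *Arabidopsis* CRK26, a cysteine-rich receptor-like kinase, had 0.22, 0.674 and 0.312 CPM in dry seed of 2MWT-L, against 10.2, 20.2 and 15.1 CPM in 2MWT. Its log2 fold change was -5.22 ± 0.42 at stage 1 (FDR = 4.93e-10) and -6.50 ± 0.40 at stage 3 (FDR = 7.92e-13), and at stage 2 it was at least 87-fold lower. Glyma.03G138100 on chromosome 3, Glyma.09G170900 on chromosome 9, Glyma.11G224400 on chromosome 11 and Glyma.15G241400 on chromosome 15 had no count in any of the 9 libraries of 2MWT-L, with bounds between 4.76-fold and 51.6-fold set by their low level in 2MWT. Glyma.02G170800, a homolog of an *Arabidopsis* ribosomal protein L6 gene, and Glyma.06G164200 were chosen after their values were seen. The ribosomal protein homolog had 0.0734, 0.15 and 0.39 CPM in dry seed of 2MWT-L, against 2.86, 3.76 and 6.08 CPM in 2MWT, a log2 fold change of -4.36 (FDR = 1.38e-05). Glyma.06G164200 fell by 3.74, 4.06 and 4.03 on the log2 scale at stages 1, 2 and 3 (FDR at most 1.59e-08).

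Other genes of this set were expressed in both lines at different levels. Glyma.17G101400 (chromosome 17, 7956697 to 7960511) is a homolog of *Arabidopsis* EXPA15, an expansin that loosens cell walls. It had 51, 72.2 and 54.8 CPM in dry seed of 2MWT-L, against 167, 146 and 150 CPM in 2MWT, and a log2 fold change of -1.38 ± 0.23 (FDR = 0.000726). At stage 3 it had 0.516, 0.313 and 0.454 CPM in 2MWT-L, against 13.5, 17.2 and 7.18 CPM in 2MWT, and the log2 fold change was -4.87 ± 0.30 (FDR = 7.91e-13). The transcript thus declined in both lines as germination went on, and more steeply in 2MWT-L. Glyma.03G129700, named here after its values were seen, lies on chromosome 3 and had 5.07, 6.14 and 5.85 CPM in dry seed of 2MWT-L, against 83.3, 58 and 102 CPM in 2MWT, with log2 fold changes of -3.83, -1.83 and -1.65 over the stages.

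The 7 genes higher at every stage were led by Glyma.19G146800 (chromosome 19, 40755569 to 40757941). It had 35.7, 35.3 and 32.5 CPM in dry seed of 2MWT-L, against 0, 0 and 1.13 CPM in 2MWT, a log2 fold change of 6.68 ± 0.50 (FDR = 2.58e-10). At stage 2 it had 64, 69.6 and 53.5 CPM in 2MWT-L and under 0.1 CPM in each 2MWT library, at least 705-fold higher, and at stage 3 it had 22.7, 16.6 and 15.3 CPM in 2MWT-L, against 0.0454, 0.0266 and 0.168 CPM in 2MWT. Glyma.15G187300 and the homolog of *Arabidopsis* FRS3, a FAR1-related transcription factor (Glyma.15G222100), were expressed in each 2MWT-L library and nearly absent in 2MWT. At stage 3 they were at least 51-fold and 53.3-fold higher. Glyma.03G135700 on chromosome 3 had 24.6, 18.9 and 22.3 CPM in dry seed of 2MWT-L, against 1.83, 1.91 and 1.54 CPM in 2MWT, and log2 fold changes of 3.63, 2.84 and 2.28 over the stages (FDR at most 0.000205). Glyma.16G119900, Glyma.13G033500 and Glyma.19G161700 rose by mean log2 fold changes of 2.85, 3.83 and 2.81 over the stages. The calls of 16 of the 25 genes held at each stage in every fit that left out 1 library of that stage. Among the higher genes those of Glyma.16G119900 and Glyma.19G161700 did not.

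**Figure D2:**
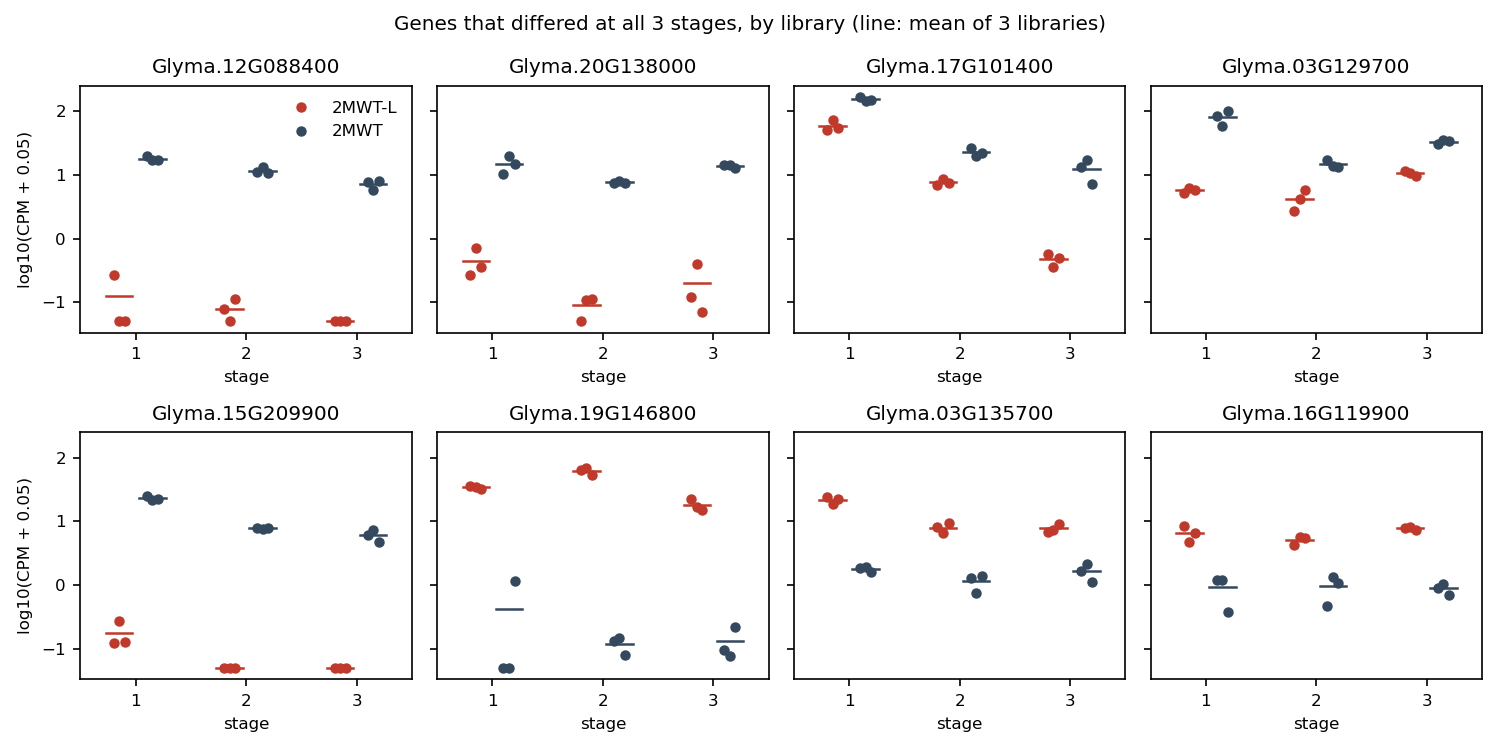
Transcript levels, as log10 of CPM plus 0.05 (vertical axis), of 8 genes by stage (horizontal axis), with a point for each library and a line at the mean of 3 libraries. The libraries of 2MWT-L lie below those of 2MWT for Glyma.12G088400, Glyma.20G138000, Glyma.17G101400, Glyma.03G129700 and Glyma.15G209900 and above them for Glyma.19G146800, Glyma.03G135700 and Glyma.16G119900, with no overlap at any stage.

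A second pair of lines allows the same allele to be examined with a different partner: *2mlpa* and 2MWT-N both carry *mrp-l* and differ in *mrp-n*, and they share no library with the comparison of 2MWT-L and 2MWT. Between *2mlpa* and 2MWT-N, 712, 219 and 158 genes (2.27%, 0.698% and 0.504%) were DEGs at stages 1, 2 and 3. Of the DEGs between 2MWT-L and 2MWT, 13 of 199, 11 of 63 and 13 of 174 were DEGs in the same direction there, and 32, 14 and 17 in the opposite direction. The sign of the fold change was shared by 38.7%, 38.1% and 51.1% of the DEGs at stages 1, 2 and 3, beside 42.4%, 43.9% and 53% of all genes tested. An interaction term tested whether the *mrp-n* difference depended on the background. It passed at FDR under 0.01 for 127, 36 and 53 of these DEGs. Of all genes, 1215, 260 and 170 passed (3.87%, 0.829% and 0.542%). That term includes the difference on which the DEGs were selected. A larger share among them was thus built in and is no evidence on the background.

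The 25 genes of all stages fell into distinct patterns over the 4 lines. A first set of 8 genes, on chromosomes 2, 6, 9, 11, 12 and 13, followed the *mrp-n* genotype in both backgrounds and was called in the same direction at each stage. Glyma.12G088400, for example, averaged 0, 0.062 and 0.0305 CPM in *2mlpa* at stages 1, 2 and 3, against 12.5, 8.05 and 8.06 CPM in 2MWT-N, and Glyma.11G224400 had no count in 2MWT-L or *2mlpa* and 0.925 to 4.87 CPM in 2MWT libraries. Glyma.13G033500 was the higher gene of this set, with a dry seed mean of 9.7 CPM in *2mlpa* against 0.0202 CPM in 2MWT-N. None of these 8 genes lies on chromosome 3, where MRP-N is located, and the interaction term was called for 1 of them at 1 stage, Glyma.13G042200 in dry seed.

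A second set of 8 genes, of which 5 lie on chromosome 15, 2 on chromosome 19 and 1 on chromosome 14, was called in the opposite direction between *2mlpa* and 2MWT-N at 2 or 3 stages, and the interaction term was called for each at every stage. Glyma.15G209900 averaged 19.6, 11.1 and 4.61 CPM in *2mlpa* and 0.236, 0 and 0 CPM in 2MWT-N. Glyma.19G146800 averaged 0, 0.297 and 0.0619 CPM in *2mlpa* and 54, 77.6 and 27.5 CPM in 2MWT-N. For these genes 2MWT-L resembled 2MWT-N, with which it shares neither mutant *mrp* allele, and 2MWT resembled *2mlpa*. The last set of 8 genes was not called between *2mlpa* and 2MWT-N, and its means in 2MWT-L lay outside those of the other 3 lines at each stage. The interaction term was called at every stage for 5 of them. The set holds the expansin homolog Glyma.17G101400, the CRK26 homolog Glyma.20G138000 and the chromosome 3 genes Glyma.03G129700, Glyma.03G135700 and Glyma.03G138100. The CRK26 homolog, for instance, averaged 15.5, 7.32 and 16.6 CPM in *2mlpa* and 19.1, 7.51 and 12.7 CPM in 2MWT-N, near its level in 2MWT. The remaining gene, Glyma.16G119900, was called at 1 stage in the opposite direction.

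**Figure D3:**
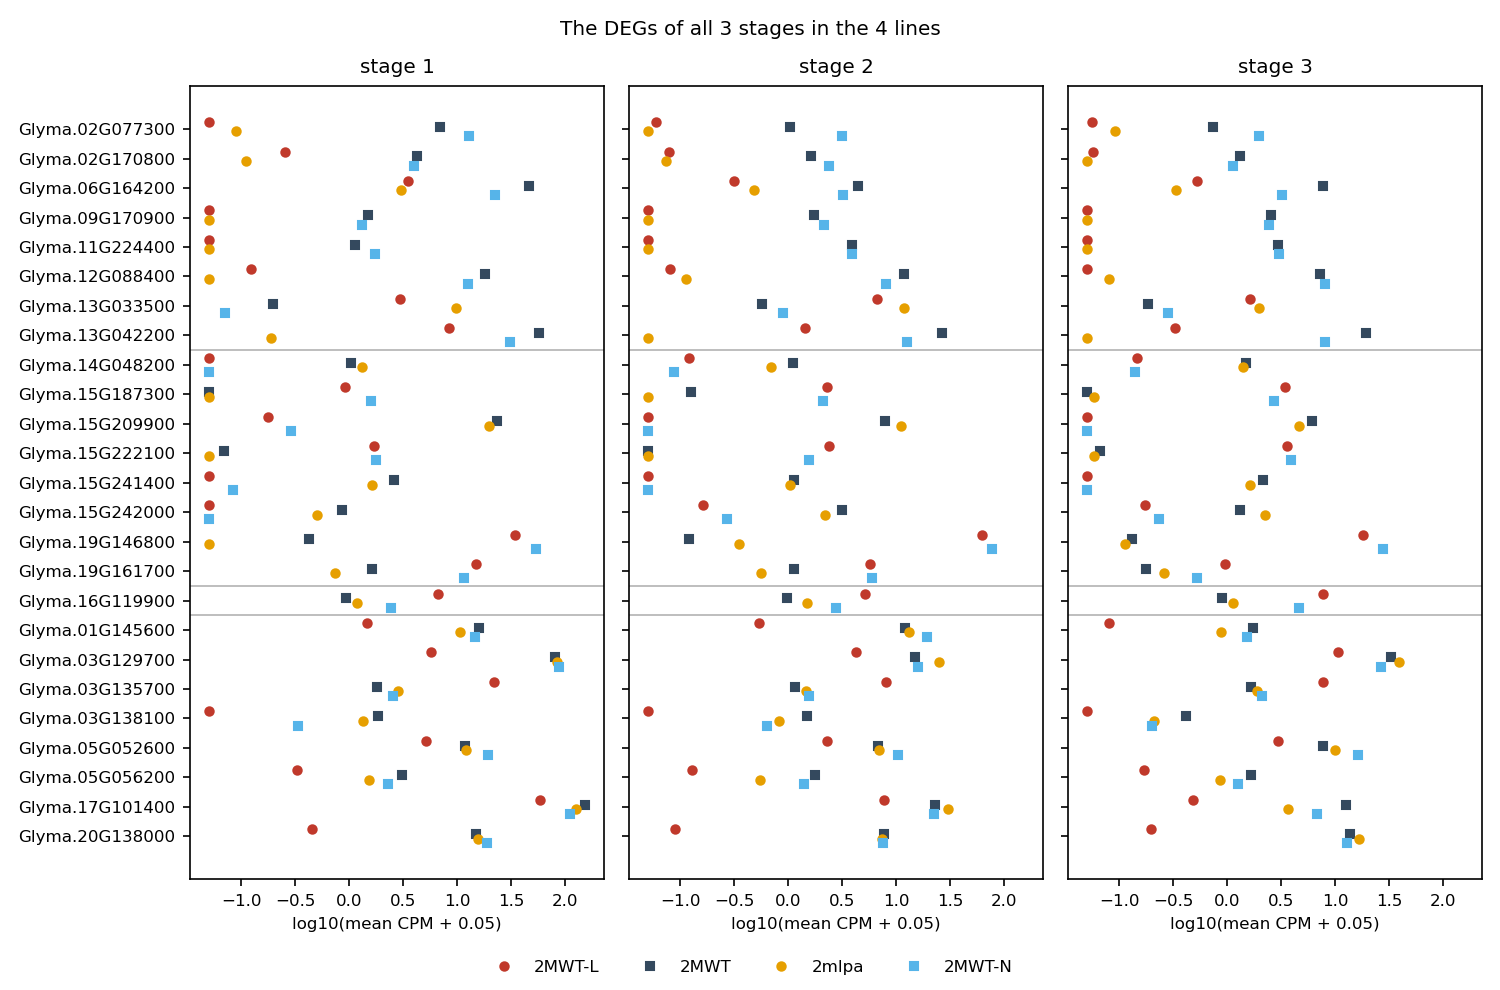
Mean transcript levels of the 25 genes called at all 3 stages (rows), as log10 of mean CPM plus 0.05 (horizontal axis), in 2MWT-L, 2MWT, *2mlpa* and 2MWT-N at each stage (panels). Grey lines separate, from the top, the 8 genes called in the same direction between *2mlpa* and 2MWT-N, the 8 called in the opposite direction, the 1 called at 1 stage and the 8 not called, in which the mean of 2MWT-L lies outside those of the other 3 lines.

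In dry seed, the most abundant DEGs that were higher in 2MWT-L were Glyma.03G159000, Glyma.20G133800, Glyma.15G218900 and Glyma.03G144500. The last is a homolog of *Arabidopsis* FAD2, the desaturase that makes linoleic acid in seed oil, and had 174, 191 and 129 CPM in 2MWT-L, against 57.5, 79.4 and 62.5 CPM in 2MWT (log2 fold change 1.31 ± 0.27, FDR = 0.00529). Glyma.20G133800 had 285, 335 and 374 CPM in 2MWT-L, against 106, 97.7 and 97.2 CPM in 2MWT (1.72 ± 0.17, FDR = 6.37e-08). Glyma.15G218900 had 237, 315 and 261 CPM in 2MWT-L, against 111, 129 and 108 CPM in 2MWT (1.23 ± 0.17, FDR = 2.97e-05). The groups did not overlap for these genes, which was a condition of naming them and held for 16.3% of all genes tested in dry seed. The call of Glyma.20G133800 and that of Glyma.15G218900 held whichever stage 1 library was left out, while those of the FAD2 homolog and Glyma.03G159000 were lost without any of 4 libraries, among them replicates 1 and 2 of 2MWT-L. In the other background the FAD2 homolog ran the opposite way, with means of 56.3 CPM in *2mlpa* against 268 CPM in 2MWT-N (interaction FDR = 1.39e-07).

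The most abundant DEGs that were lower in dry seed of 2MWT-L were the expansin homolog Glyma.17G101400, Glyma.05G146800, Glyma.14G216100 and Glyma.06G242900. Glyma.14G216100 had 26.4, 18.6 and 31.7 CPM in 2MWT-L, against 96.1, 64.1 and 95.8 CPM in 2MWT (log2 fold change -1.74 ± 0.34, FDR = 0.00398). Glyma.10G224300 on chromosome 10 had no count in dry seed of 2MWT-L and 12.2, 4.91 and 8.18 CPM in 2MWT, and its mean in *2mlpa* and 2MWT-N was 0 and 0.0712 CPM, so that 2MWT was the line that stood apart. Among annotated genes chosen after their values were seen, Glyma.16G157100, a homolog of the *Arabidopsis* phloem sucrose transporter SUC2, had 22.1, 15.3 and 23.9 CPM in 2MWT-L, against 61.7, 47.8 and 46 CPM in 2MWT (-1.34 ± 0.28, FDR = 0.00599). Glyma.03G125800, a homolog of a chaperonin 10 gene, had 20.9, 18.9 and 19.7 CPM in 2MWT-L, against 7.55, 6.36 and 8.34 CPM in 2MWT, and was higher at stages 1 and 2 (1.42 and 1.39). Of the 135 lower DEGs of dry seed, 50.4% rose between stages 1 and 3 in *2mlpa* and 2MWT-N fitted jointly, against 34.4% of all genes tested. In all, 65 of the 199 DEGs of dry seed kept their call whichever of the 6 libraries was left out.

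In imbibed seed, Glyma.19G162100 was higher and Glyma.17G108500 lower in 2MWT-L, at stage 3 as well. Glyma.19G162100, a homolog of *Arabidopsis* CYP94B1, a cytochrome P450 that oxidises the hormone jasmonoyl-isoleucine, had 14.7, 14.1 and 10.9 CPM in 2MWT-L, against 0.784, 1.35 and 0.312 CPM in 2MWT (log2 fold change 4.03 ± 0.44, FDR = 6.65e-07). It remained higher at stage 3 (2.70 ± 0.41, FDR = 0.000188), and it ran the opposite way between *2mlpa* (2.53 CPM) and 2MWT-N (25.2 CPM) at stage 2. Glyma.17G108500 had 35.7, 28.1 and 23.4 CPM in 2MWT-L, against 105, 95.7 and 106 CPM in 2MWT at stage 2 (-1.81 ± 0.20, FDR = 8.75e-07), and was lower at stage 3 too (-2.18 ± 0.20, FDR = 1.39e-08), the change between these stages not passing the test (-0.37 ± 0.28, FDR = 0.66). Both calls held without any single library of the stage.

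Further abundant DEGs of imbibed seed were smaller in size. Glyma.17G099300 was higher, with 57.2, 55.4 and 51.7 CPM in 2MWT-L, against 24.9, 26.9 and 26.5 CPM in 2MWT (1.07 ± 0.16, FDR = 0.00022), and it was higher in dry seed too (1.65 ± 0.17). Glyma.11G082500 was higher by 1.22 ± 0.23 and Glyma.20G133800 by 1.04 ± 0.17. Glyma.08G042900 and Glyma.10G124000 fell by 1.22 and 1.10 on the log2 scale. Glyma.06G052000, a homolog of *Arabidopsis* IRT3, a zinc and iron transporter of the plasma membrane, had 38, 37.6 and 33.2 CPM in 2MWT-L, against 65.5, 77.8 and 82 CPM in 2MWT (-1.05 ± 0.20, FDR = 0.00678). At stage 3 the libraries of this gene were ordered the other way, at 78.5, 71.8 and 71.1 CPM in 2MWT-L, against 46.9, 40.8 and 42.9 CPM in 2MWT (0.76 ± 0.20, FDR = 0.0323). Its stage 2 call was lost whichever library of the stage was left out. Glyma.02G307500 had 4.18, 10.2 and 22.8 CPM in 2MWT-L, against 2.07, 0.577 and 1.42 CPM in 2MWT (3.18 ± 0.62, FDR = 0.00717), and its call was lost in 10 of 26 alternatives, among them fits without replicate 2 or 3 of 2MWT-L, any replicate of 2MWT or the near-empty library, and the fit with a replicate block. Of the 63 DEGs, 31 kept their call whichever library was left out.

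In germinated seed, 139 of the 174 DEGs were lower in 2MWT-L. The 13 of them described next were picked for a known role of their homolog after their values were seen, and they stand for no pathway. Glyma.01G238800, a homolog of the hexose transporter STP13, had 3.82, 10.7 and 16.3 CPM in 2MWT-L, against 19.4, 27.6 and 222 CPM in 2MWT (log2 fold change -3.13 ± 0.66, FDR = 0.00779). Glyma.12G234500, a homolog of the vacuolar sugar transporter SWEET2, had 1.8, 4.29 and 7.14 CPM in 2MWT-L, against 7.77, 29.8 and 46.4 CPM in 2MWT (-2.67 ± 0.49, FDR = 0.0021). Homologs of the hexose transporter STP1 (Glyma.08G059700, -3.36) and the amino acid transporter LHT1 (Glyma.19G076800, -4.05) were also lower, although the libraries of the 2 lines overlapped for both. The calls of the STP1 and LHT1 homologs were lost in 15 and 10 of 26 alternatives, among them RLE factors and the fit without the near-empty library. That of the STP13 homolog was lost in 11, among them DESeq2 and RLE factors.

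Among enzymes, Glyma.01G210400, a homolog of an *Arabidopsis* lactate dehydrogenase, had 0.0534, 0.202 and 0.809 CPM in 2MWT-L, against 1.86, 3.38 and 27.9 CPM in 2MWT (-4.97 ± 0.96, FDR = 0.00392). Glyma.20G136200, a homolog of the plastid pyruvate kinase PKP1 of fatty acid synthesis, was the steadiest of the group, at 1.17, 1.1 and 1.26 CPM in 2MWT-L and 4.5, 5.86 and 6.56 CPM in 2MWT (-2.25 ± 0.38, FDR = 0.000926). Homologs of the 9-lipoxygenase LOX1 (Glyma.10G153900, -1.04), the 13-lipoxygenase LOX3 of jasmonate synthesis (Glyma.07G039900, -1.44), the alpha-dioxygenase DOX1 (Glyma.13G070900, -2.19) and the plastid isoprenoid enzyme DXS (Glyma.08G277000, -2.85) were lower as well. So were those of asparaginase (Glyma.04G042100, -2.46), the kinase CIPK10 (Glyma.02G234800, -2.60) and polyubiquitin UBQ10 (Glyma.13G117700, -1.75), the last of which overlaps another gene model. Over the 13 genes, calls were lost in between 4 (PKP1 homolog) and 19 (LOX3 homolog) of 26 alternatives. For all 13 the mean in 2MWT-L was also under the means in *2mlpa* and 2MWT-N at this stage. The highest 2MWT library was replicate 3 for 9 of the 13, and the lowest 2MWT-L library was replicate 1 for 12.

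These calls depended on single libraries and on the fit. Without replicate 1 or without replicate 2 of 2MWT-L at stage 3, none of the 13 was a DEG, and without replicate 3 of 2MWT 10 of them were not. All 13 calls were lost in the fit of the stage's 12 libraries and with glmTreat, 12 in the fit of the 6 libraries compared, 4 with DESeq2 and 5 with RLE factors. Over all genes of the stage, 174 DEGs became 42 without 2MWT-L replicate 1, 54 without 2MWT-L replicate 2, 78 without 2MWT replicate 3 and 587 without 2MWT replicate 1. Among the 139 lower DEGs, 2MWT-L replicate 1 was the lowest library of its line for 94 and 2MWT replicate 3 the highest of its line for 87. Of the lower DEGs, 61 of 139 (43.9%) also fell between stage 1 and stage 3 in *2mlpa* and 2MWT-N fitted jointly, against 23.8% of all genes tested. How far seeds had advanced at sampling was not tested. In all, 41 of the 174 DEGs kept their call whichever library of the stage was left out, among them Glyma.13G332300, which had 6.05, 6.28 and 5.49 CPM in 2MWT-L, against 0.704, 0.906 and 1.04 CPM in 2MWT (2.74 ± 0.38, FDR = 5.19e-05).

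**Figure D4:**
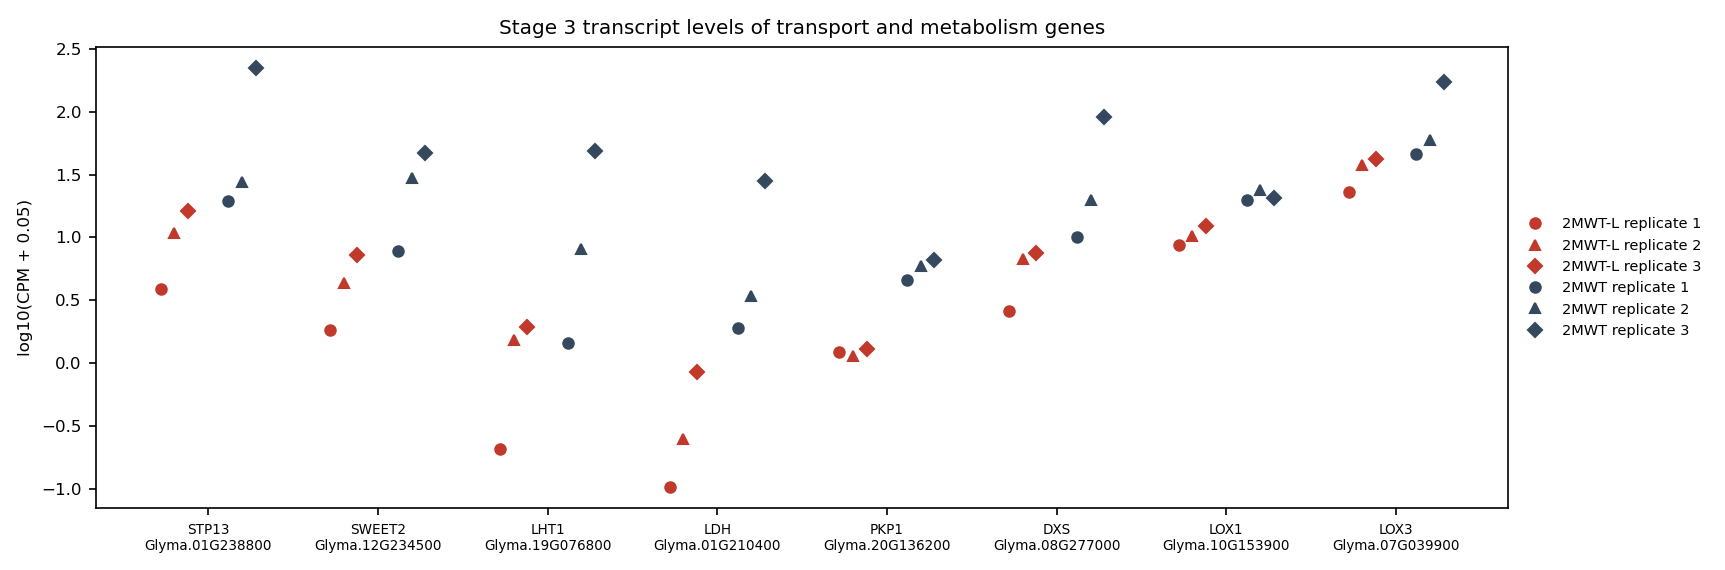
Stage 3 transcript levels, as log10 of CPM plus 0.05 (vertical axis), of 8 homologs of transport and metabolism genes (horizontal axis), with a symbol for each replicate of 2MWT-L and 2MWT. Replicate 3 of 2MWT is far above the other libraries for STP13, LHT1, LDH and DXS, while PKP1 and LOX1 separate the lines with little spread.

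The most abundant stage 3 DEGs showed smaller folds. Glyma.08G285900 had 113, 140 and 211 CPM in 2MWT-L, against 344, 532 and 416 CPM in 2MWT (-1.48 ± 0.24, FDR = 0.000497), and Glyma.11G247600, Glyma.19G014600 and Glyma.07G019100 fell by 1.23, 1.41 and 1.75 on the log2 scale. Glyma.14G020100 had 205, 177 and 177 CPM in 2MWT-L, against 76.9, 84.2 and 65 CPM in 2MWT (1.31 ± 0.25, FDR = 0.003). Glyma.13G267800 and Glyma.13G267900, adjacent on chromosome 13, were higher by 1.33 ± 0.26 and 1.27 ± 0.26, and Glyma.13G357200 by 1.04 ± 0.20. Each of these 8 calls was lost without replicate 1 of 2MWT-L and also without replicate 2. Glyma.11G198500 had 0.0889, 0.0552 and 0.237 CPM in 2MWT-L, against 0.84, 3.17 and 46.6 CPM in 2MWT (-7.04 ± 1.37, FDR = 0.00589). The libraries did not overlap, which was a condition of naming this gene. Without replicate 3 of 2MWT the log2 fold change was -3.95 (FDR = 0.122).

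Whether the difference between the lines changed with the stage was tested as an interaction. Between stages 1 and 2 no gene passed at FDR under 0.01 in edgeR, with 3790 genes at an unadjusted p under 0.05, while DESeq2 called 8, edgeR with RLE factors 9 and edgeR without the filter 6. Between stages 1 and 3, 55 genes passed (0.175%), 41 of which were DEGs at some stage, and in 48 of the 55 the fold change had opposite signs at the 2 stages. Selection on the difference favours opposite signs, and the share over all genes was not taken. Some of these fold changes were near 0 at 1 stage, and no gene was called in opposite directions. Between stages 2 and 3, 6 genes passed (0.0191%). The expansin homolog Glyma.17G101400 led both lists: its log2 fold change was lower at stage 3 than at stage 1 by -3.49 ± 0.37 (FDR = 2.01e-06) and than at stage 2 by -3.30 ± 0.37 (FDR = 9.21e-06). Glyma.20G133800, higher in dry seed of 2MWT-L, had 55.9, 67.6 and 73.9 CPM in 2MWT-L and 57.1, 61.8 and 80.1 CPM in 2MWT at stage 3, an interaction of -1.74 ± 0.24 (FDR = 0.000144). Glyma.03G129700 moved the other way, its deficit in 2MWT-L being smaller at stage 3 than at stage 1 by 2.18 ± 0.31 (FDR = 0.00021). The IRT3 homolog Glyma.06G052000 differed between stages 2 and 3 by 1.81 ± 0.29 (FDR = 0.00275).

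The positions of the DEGs were then examined, since sister lines can differ in linked segments around a selected gene. Within 1 Mb of MRP-N, 1 of 149 genes tested (0.671%) was a DEG at any stage, within 2 Mb 2 of 271 (0.738%) and within 5 Mb 17 of 670 (2.54%), beside 1.14% of all genes. The nearest was Glyma.03G159000, at 0.78 Mb. Most of the others lay on the same side of MRP-N, in the adjoining 1 Mb windows from 34 Mb and 35 Mb on chromosome 3, where 5 of 54 (9.26%) and 6 of 51 genes (11.8%) were DEGs. They included Glyma.03G129700, Glyma.03G135700 and Glyma.03G138100, all 3 called at every stage. Of these, 4 of the 5 and all 6 were not called between *2mlpa* and 2MWT-N, which differ at MRP-N as well. Most DEGs were not called there at any given stage. At stages 1, 2 and 3, 13 of 199, 11 of 63 and 13 of 174 were called in the same direction and 32, 14 and 17 in the opposite one. Linkage to MRP-N was not tested. Within 5 Mb of MRP-L, which is functional in both 2MWT-L and 2MWT, 18 of 644 genes (2.8%) were DEGs.

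**Figure D5:**
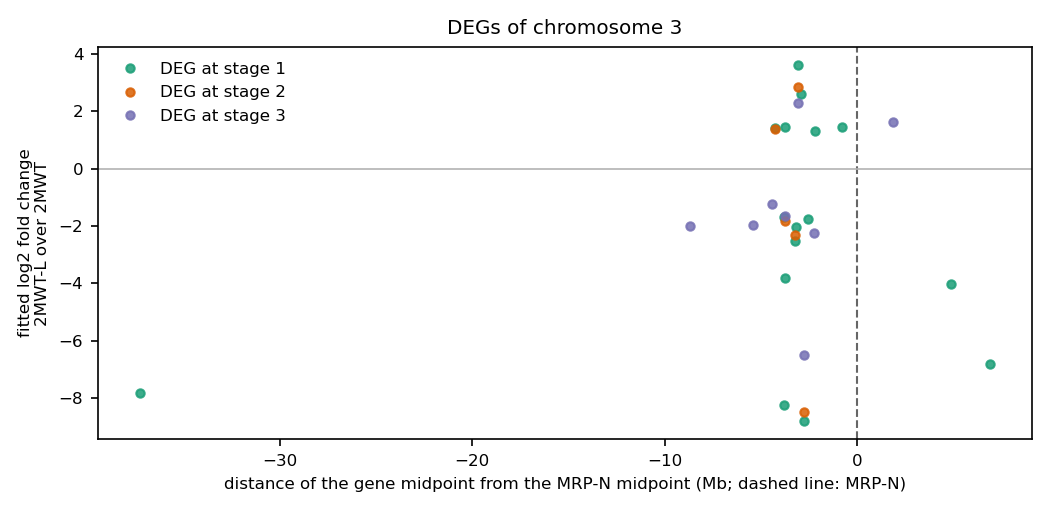
Fitted log2 fold changes of 2MWT-L over 2MWT (vertical axis) of the chromosome 3 DEGs at the stages where they were called (colours), by distance from MRP-N in Mb (horizontal axis). Most points lie on 1 side of MRP-N, at distances of -4.43 to -2.19 Mb, and fitted values of genes with no counts in 2MWT-L are no measure of size.

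By chromosome, the share of DEGs was highest on chromosome 19 (33 genes, 2.25%) and chromosome 15 (29 genes, 1.93%) and lowest on chromosome 14 (6 genes, 0.495%). Of 946 windows of 1 Mb with a tested gene, 11 held 4 or more DEGs, 56 in all. The window from 37 Mb of chromosome 20 held 7 DEGs of 70 genes, 5 of them lower and 2 higher. Among them were the CRK26 homolog Glyma.20G138000, the PKP1 homolog Glyma.20G136200 and Glyma.20G133800. All 7 were not called between *2mlpa* and 2MWT-N, as was the case for most DEGs at each stage. The window from 46 Mb of chromosome 15 held 4 DEGs of 15 genes, all called in that comparison at 1 or more stages. Chromosomes 18 (from 55 Mb) and 19 (from 44 Mb) each had a window with 6 DEGs.

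Genes of phosphate homeostasis were of interest because phytic acid is the phosphate store. The list held the study's homologs of PAP17 and GDPD1, a pair of genes each, and their putative regulator of the C2H2 type, Glyma.08G092300. Of these 5 genes none passed the test in 2MWT-L at any stage. The list's median log2 fold change was 0, 1.14 and 0.97 at stages 1, 2 and 3, beside -0.02, 0 and 0.02 of all genes, with 5 of 5 positive at stage 2. The regulator alone had a log2 fold change of 2.21 ± 0.61 in dry seed (FDR = 0.0358). Glyma.08G056400, a homolog of the purple acid phosphatase PAP17, had 7.19, 9.86 and 14.5 CPM at stage 2 in 2MWT-L, against 1.43, 2.47 and 3.12 CPM in 2MWT (2.17 ± 0.47, FDR = 0.0192). Glyma.19G098500, a homolog of the glycerophosphodiester phosphodiesterase GDPD1, had 119, 114 and 145 CPM at stage 3 in 2MWT-L, against 55, 97.9 and 39.5 CPM in 2MWT (0.97 ± 0.26, FDR = 0.0303). The libraries of the lines did not overlap in either case, and neither reached the FDR threshold. Such a lack of overlap was seen in 26.1% of all genes tested at stage 2 and 24.6% at stage 3. Between *2mlpa* and 2MWT-N, 1, 4 and 3 of the 5 genes were called lower at stages 1, 2 and 3. Glyma.08G056400 averaged 0.369 ± 0.126 CPM in *2mlpa* and 4.52 ± 1.73 CPM in 2MWT-N at stage 3 (SD, n = 3), and the interaction with the background was called for this gene and for 4 of the 5 genes at stage 2 and 3 of the 5 at stage 3. The study chose this list on libraries that include these, so its direction is not independent evidence.

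Of 4 seed storage protein genes that the study placed among targets of its MRP network, homologs of *Arabidopsis* cruciferins and a vicilin-like globulin, none passed the test in 2MWT-L and the fold change was negative for all 4 at each stage. Their summed level in dry seed was 499 to 1550 CPM in 2MWT-L and 1260 to 2390 CPM in 2MWT, which overlap. In the other background all 4 were higher in *2mlpa* than in 2MWT-N in dry seed, and the interaction was called for all 4. Their sums were 4710 to 18700 CPM in *2mlpa* and 1810 to 3340 CPM in 2MWT-N. At stage 2, 1 gene was called higher in *2mlpa* and the interaction was called for 2. At stage 3 neither was called for any of them. Glyma.19G164900, for example, had 10.9, 8.76 and 18.4 CPM in dry seed of 2MWT-L, against 29.7, 27 and 21.5 CPM in 2MWT (-1.04 ± 0.39, FDR = 0.13), and averaged 208 ± 118 CPM in *2mlpa* and 31.6 ± 5.38 CPM in 2MWT-N (SD, n = 3). The study selected these genes for a difference between *2mlpa* and each sister line, on libraries that include these. Neither the direction in *2mlpa* nor the interaction is therefore independent evidence.

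Of the 51 genes on the study's lists, 50 were tested and 2 were called, both lower in germinated seed, beside 1.14% of all genes called at any stage. Glyma.13G153200, a homolog of ABI5, a bZIP factor of abscisic acid (ABA) signalling that restrains germination in *Arabidopsis*, had 1.46, 1.56 and 2.21 CPM in 2MWT-L, against 3.36, 3.01 and 6.04 CPM in 2MWT (-1.26 ± 0.26, FDR = 0.0065). The other ABI5 homolog, Glyma.10G071700, had a log2 fold change of -0.68 (FDR = 0.199). Glyma.17G053700, which encodes a heat stress transcription factor, had 1.24, 1.53 and 1.78 CPM in 2MWT-L, against 2.16, 10.7 and 4.77 CPM in 2MWT (-1.95 ± 0.41, FDR = 0.0074). Both calls were lost without replicate 3 of 2MWT and without replicate 1 or 2 of 2MWT-L. They were also lost with RLE factors, with glmTreat and in the fits of the stage's 12 libraries and of the 6 compared. The call of Glyma.13G153200 was lost with DESeq2 too. Of 11 genes of ABA signalling 1 was called, and the median was -0.08, -0.35 and -0.53 over the stages. Of 6 late embryogenesis abundant (LEA) genes, which protect dry seed, none was called, and the median was -0.02, -0.37 and -0.95, with all 6 negative at stages 2 and 3. Neither list of network regulators held another called gene, and none of the 3 phytic acid kinase genes (ITPK1 and ITPK4) that were tested passed.

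A further 25 lists were built on the names of *Arabidopsis* homologs, and 20 had a member. They covered storage and LEA proteins, chaperones, genes of ABA, gibberellin, auxin and ethylene, cell wall loosening, raffinose sugars, inositol phosphates, phosphate starvation, hypoxia, antioxidants, photosynthesis, ribosomal proteins, protease inhibitors and disease resistance. Many homologs had no name to match, so each list holds only part of its class. The expansin homolog Glyma.17G101400 and the heat stress factor gene Glyma.17G053700, both DEGs, were on none of these lists. Of the 97 genes listed, 95 were tested and 1 was called, a share near the 1.14% of all genes. This gene, Glyma.05G082400, named after its values were seen, is a homolog of a disease resistance gene and had 1.39, 3.48 and 4.01 CPM at stage 3 in 2MWT-L, against 3.59, 9.86 and 40.4 CPM in 2MWT (-2.61 ± 0.54, FDR = 0.0074). The 2 genes of the radicle and root list were not called and summed to 2240 to 2930 CPM in 2MWT-L and 2350 to 2960 CPM in 2MWT in dry seed, and to 13.3 to 17.1 CPM in 2MWT-L and 12.1 to 30.4 CPM in 2MWT at stage 3. The list of seed coat markers had no member, so left-over seed coat was not tested. The 2 genes of the organelle and microbe list were not called and summed to 38 to 44.6 CPM in 2MWT-L and 30.5 to 39.3 CPM in 2MWT in dry seed.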

How the data were processed

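RNA from seeds was sequenced as paired reads. Upstream, Skewer served for trimming, STAR 2.5.2b for alignment to Wm82.a2.v1 and featureCounts for counting read pairs over exons. The values deposited by the authors are raw counts per gene, and the authors' own tests used DESeq2 1.22.2 in R 3.5.1. Counting was unstranded and left out ambiguous and multi-mapping pairs, so near-identical or overlapping genes are uncertain.

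Here all 36 libraries of the MRP subset were fitted together with edgeR 4.0.16 (quasi-likelihood F-test, TMM scaling, R 4.3.3), 1 group per line and stage, on genes with a mean normalised count over 10. FDR is the Benjamini-Hochberg adjusted p over all 31363 genes, and SE equals the log2 fold change over the root of the F statistic. DEGs needed an FDR under 0.01 and a log2 fold change over 1 in size, and interaction terms an FDR under 0.01. Where a line held at most 3 counts in each library, a bound replaces the fold. No 2 libraries were identical, and the script was checked on simulated counts.

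The genes named were the mutated and listed genes, the 6 highest and 6 lowest all-stage DEGs by mean log2 fold change, and at each stage the 4 highest and 4 lowest non-overlapping DEGs by fold (mean over 5 CPM in a line) and the 4 most abundant in each direction. Others are said to be chosen after their values were seen. Members and lists were chosen with earlier results of these data known. Homologs of 3040 genes came from the study's supplementary tables, and name patterns meant for RefSeq products were applied to them. Alternatives were DESeq2 1.42.0, relative log expression (RLE) factors, no filter, glmTreat, smaller fits, a replicate block and leaving out each library.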

Additional observations from a re-analysis of the deposited data

Results flagged for a closer look

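The difference between 2MWT-L and 2MWT changed with the stage for 55 genes between stages 1 and 3 and for 6 between stages 2 and 3, by the interaction test at FDR under 0.01. It differed from that between *2mlpa* and 2MWT-N for 1215, 260 and 170 genes at stages 1, 2 and 3. Among the genes followed by name, 55 passed such a test, 52 of them with the lowest FDR for the background and 3 for the stage. Genes named as DEGs were selected on a difference that these terms include. The values below are fitted differences of log2 fold changes. They are no bounds where a line had no counts, as for Glyma.15G209900.

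By stage, Glyma.08G285900 (-1.80) and Glyma.13G267800 (1.95) differed between stages 1 and 3, and Glyma.06G052000 (1.81) between stages 2 and 3.

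By background, large fitted differences belonged to genes with almost no counts in a pair of lines. They were Glyma.14G048200 (-16.25), Glyma.15G242000 (-8.00), Glyma.15G187300 (17.54), Glyma.15G209900 (-20.72), Glyma.15G222100 (15.94), Glyma.15G241400 (-17.68) and Glyma.19G146800 (17.72). Glyma.03G138100 (-10.97) had no counts in 2MWT-L alone. Further genes of all stages were Glyma.13G042200 (5), Glyma.03G129700 (-3.79), Glyma.05G056200 (-3.15), Glyma.19G161700 (7.29), Glyma.20G138000 (-6.87), Glyma.16G119900 (5.30), Glyma.17G101400 (-3.95) and Glyma.03G135700 (3.45).

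Abundant or strongly changed genes of single stages with such a difference were Glyma.19G162100 (7.33), Glyma.11G198500 (-9.22), Glyma.11G082500 (4.40), Glyma.02G307500 (4.35), Glyma.03G144500 (3.56), Glyma.13G332300 (3.36), Glyma.03G159000 (2.99), Glyma.15G218900 (2.24), Glyma.17G099300 (2.05) and Glyma.20G133800 (1.88). Lower ones were Glyma.14G216100 (-2.64), Glyma.17G108500 (-2.44), Glyma.06G242900 (-2.21), Glyma.05G146800 (-2.18), Glyma.10G124000 (-1.69) and Glyma.08G042900 (-1.40).

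In the phosphate list, the PAP17 homologs Glyma.05G247900 (10.87) and Glyma.08G056400 (4.95) and the GDPD1 homologs Glyma.16G052000 (2.72) and Glyma.19G098500 (4.05) differed. The storage protein genes were Glyma.10G037100 (-2.98), Glyma.13G123500 (-3.27), Glyma.19G164900 (-3.75) and Glyma.20G148300 (-4.35). Other listed genes were Glyma.17G219300 (-2.61), Glyma.05G032200 (-2.33), Glyma.01G119600 (-2.15), Glyma.04G085000 (1.89), Glyma.08G137800 (-1.35), Glyma.10G065100 (-1.40) and Glyma.17G053700 (-3.13). Of the genes chosen after their values were seen, Glyma.03G125800 (1.65), Glyma.05G200500 (1.53), Glyma.08G059700 (-4.60), Glyma.13G117700 (-3.13) and Glyma.16G157100 (-2.34) differed.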

How the results depend on the processing

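Alternatives were run for 115 results of single genes, those called at a stage and MRP-N, and no called one changed direction. With 1 library left out, 1877 of 2070 such values kept their side of the threshold and 193 lost the call. For each result most of these fits left out a library of another stage, and MRP-N was never called, so this share overstates stability. Of all DEGs, 32.7%, 49.2% and 23.6% at stages 1, 2 and 3 kept their call whichever library of the stage was left out. Leaving out each library in turn gave 109 to 283, 40 to 106 and 42 to 587 DEGs at stages 1, 2 and 3, 218 to 753 at any stage and 19 to 27 at every stage. The lowest and highest counts came without replicates 2 and 3 of 2MWT-L at stage 1, without replicate 2 of 2MWT and replicate 1 of 2MWT-L at stage 2, and without replicate 1 of 2MWT-L and replicate 1 of 2MWT at stage 3. The ranges were 656 to 795, 192 to 256 and 144 to 181 for *2mlpa* against 2MWT-N. For changes with the stage they were 0 to 21 (2 against 1), 17 to 77 (3 against 1) and 2 to 8 (3 against 2), and for the background 802 to 1453, 128 to 380 and 88 to 391.

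The order of the stages by number of DEGs also depended on the fit. With a fold threshold inside the test (glmTreat) 38, 24 and 23 genes passed, 50 at any stage and 14 at every stage. Fits of the 12 libraries of a stage gave 67, 189 and 35 DEGs, 237 at any stage and 12 at every stage, and fits of the 6 libraries of a comparison 100, 40 and 25, 136 at any stage and 6 at every stage. Without the filter, stages 2 and 3 had 109 and 512 DEGs, 771 at any stage, the stage interactions 6, 105 and 17 and the background interactions of stages 2 and 3 422 and 386. DESeq2 called 8 and 149 and edgeR with RLE factors 9 and 170 genes for a change of the difference at stages 2 and 3 against stage 1. The cause was not tested.

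Replicate numbers did not visibly pair the samples at stages 1 and 2. There, same-numbered libraries of the 2 lines had correlated deviations of -0.111 to 0.043. At stage 3 the values were 0.338, 0.0308 and 0.132 for replicates 1, 2 and 3, so some pairing there remains possible. Over all stages, 4 of 9 libraries correlated best with their own number. A replicate block gave 358 DEGs at stage 3 and 371 background interactions there, and moved no other count by over 1.5 times. Low counts limit precision, as 113 of 199 DEGs of dry seed were under 5 CPM in both lines.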
